A study of Homo sapiens with 24 samples.

Results

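siSFPQ-3 is one of a pair of small interfering RNAs (siRNAs) directed against SFPQ, and it was compared here on its own with a control siRNA, siCtrl. Both were transfected into SBC-3 cells, a human line from small cell lung cancer, and small RNA was sequenced. The 3 siSFPQ-3 libraries, whose genotype the labels give as SFPQ knockdown, and the 3 siCtrl libraries, labelled WT, were chosen by their sample titles from 24 libraries in 8 groups of 3. The other groups received siSFPQ-2 against the same gene, siNONO-3 or siNONO-4 against its partner NONO, a control antisense oligonucleotide, or an antisense oligonucleotide against the RNA NEAT1. Every group received 10 nM of its reagent by reverse transfection with Lipofectamine RNAiMAX and was harvested after 72 h. Of 2652 mature miRNAs in the tables, 626 had enough counts to be tested. The labels do not say that replicates were separate cultures, so p-values measure only the spread between these libraries, which may be technical. SFPQ mRNA is not part of these tables, so the depth of the knockdown was not checked, and with 1 control siRNA an effect of siSFPQ-3 outside its target cannot be told apart from loss of SFPQ. In such bulk samples a change in the share of cells that make a miRNA and a change in its amount per cell cannot be told apart.

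A miRNA begins as a hairpin within a long primary transcript made by RNA polymerase II, often in an intron of another gene. The Microprocessor complex, with the nuclease Drosha, cuts the hairpin out in the nucleus, and Dicer then trims it in the cytoplasm to a short duplex. One strand, from the 5p or the 3p arm, is loaded into an Argonaute protein and the other is usually degraded. The loaded strand finds messenger RNAs mainly through its seed, bases 2 to 8, so miRNAs with the same seed form a family with many shared targets. SFPQ is a nuclear protein that binds DNA and RNA, pairs with NONO, and is needed for paraspeckles, nuclear bodies built around the RNA NEAT1.

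Mature sequences are shown for the families that the results turn on, since miRNAs with different seeds, some told apart by a few bases, moved in different directions. Mature sequences are from RefSeq on GRCh38.p14, in which 555 of the 626 tested miRNAs had an entry. Capitals mark the seed. The first 5 carry the seed of the miR-302 family, and all 5 rose. The hairpins of miR-302a to miR-302d lie within 1 cluster on the minus strand of chromosome 4, in the GRCh38 interval chr4:112647874-112648557, inside the noncoding gene AC106864.1, while miR-302e lies between genes at chr11:7234771-7234787 on the plus strand.
miR-302a-3p: uAAGUGCUuccauguuuugguga
miR-302b-3p: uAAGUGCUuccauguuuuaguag
miR-302c-3p: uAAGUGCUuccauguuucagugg
miR-302d-3p: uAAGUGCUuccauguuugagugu
miR-302e: uAAGUGCUuccaugcuu
The next pair come from the MIR17HG transcript on chromosome 13 (chr13:91350618-91350640 and chr13:91351072-91351094, plus strand), and both fell. Their seed holds the same run AAGUGC, shifted by 1 base.
miR-17-5p: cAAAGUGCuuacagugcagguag
miR-20a-5p: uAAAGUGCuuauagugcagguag
The miR-200 family has a pair of seeds that differ at 1 base. Members with each of them rose, and miR-429 did not pass the test. miR-200b-3p lies at chr1:1167160-1167181 and miR-200a-3p at chr1:1167916-1167937, both between genes on the plus strand. miR-200c-3p (chr12:6963742-6963764) and miR-141-3p (chr12:6964155-6964176) lie in introns of MIR200CHG, also on the plus strand.
miR-200b-3p: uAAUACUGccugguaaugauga
miR-200c-3p: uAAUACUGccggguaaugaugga
miR-429: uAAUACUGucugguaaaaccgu
miR-200a-3p: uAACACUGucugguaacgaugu
miR-141-3p: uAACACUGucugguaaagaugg
The let-7 and miR-148/152 families, which fell, are shown by their most abundant tested members, let-7a-5p from an exon of MIRLET7BHG (chr22:46112752-46112773, plus strand) and miR-148b-3p from an intron of COPZ1 (chr12:54337278-54337299, plus strand). let-7a-5p has other loci and shares reads with other let-7 members, so its decrease cannot be placed at that gene.
let-7a-5p: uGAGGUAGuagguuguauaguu
miR-148b-3p: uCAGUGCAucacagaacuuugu
The largest single decreases at 10 CPM or more included miR-12135, annotated in an intron of NEO1 (chr15:73299962-73299979, plus strand), miR-4454, annotated at an intergenic locus (chr4:163093607-163093626, minus strand), and miR-421, annotated in an intron of FTX (chrX:74218392-74218414, minus strand). Whether the reads counted for miR-4454 come from that locus or from another RNA was not tested.
miR-12135: uAAAGGUUuguuuguaaa
miR-4454: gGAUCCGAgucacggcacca
miR-421: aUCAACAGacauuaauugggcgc

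The siCtrl libraries held 2038382 to 3153671 miRNA counts and the siSFPQ-3 libraries 2994281 to 3693324, with 927 to 1084 and 1143 to 1220 miRNAs detected. siCtrl replicate 1 stood apart: in a principal component analysis of the 6 libraries it lay at 16.8 on the second component (17.0% of the variance) against -7.09 and -9.60 for the other siCtrl libraries, so main counts are also given without it. Levels are given as CPM, counts scaled to a common library size, with library sizes scaled by the trimmed mean of M values (TMM). The TMM factors were 0.846 to 0.969 for siCtrl and 1.24 to 1.36 for siSFPQ-3. On the plain library totals the median log2 fold change shifted up by 0.51, and on the totals of the added spike-in oligonucleotides by 0.45. The spike-ins came to 2.25 to 2.69% of the miRNA counts with siCtrl and 2.27 to 2.94% with siSFPQ-3. All 142 increases reported below were also called on both other scales, against 44 of the 136 decreases. Both other scales move the log2 fold changes up, so that the increases kept their calls follows from the shift and is no added support. A decrease called on the TMM scale alone is to be read as relative to the other miRNAs. The number of decreases called on the other scales is given with each list of related miRNAs.

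With siSFPQ-3, 142 of 626 miRNAs rose (22.7%) and 136 fell (21.7%), or 44.4% in all, at an adjusted p under 0.05 in the quasi-likelihood test of edgeR, with p-values adjusted by the Benjamini-Hochberg method across all 626. Adjusted p-values below come from this test, and the error of a log2 fold change (after ±) is its standard error. At least 2-fold changes were found for 115 of the increases and 78 of the decreases. The median log2 fold change was -0.02 over all tested miRNAs, 1.67 over the increases and -1.06 over the decreases. All 3 siSFPQ-3 libraries lay above all 3 siCtrl libraries for 137 of the 142 increases, and below them for 108 of the 136 decreases; over all 626, 164 lay wholly above (26.2%) and 130 wholly below (20.8%). Scaled by library totals the counts were 234 higher and 51 lower, and by spike-in totals 205 and 45, so the share of calls that were increases went from 51.1% to 82.1% and 82.0%. Without siCtrl replicate 1 the counts were 144 and 113, of which 123 and 104 were among the calls with all libraries.

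Increases were mostly of scarce miRNAs and decreases mostly of abundant ones. The median level with siCtrl was 7.70 CPM for the increases and 158 CPM for the decreases. Of 25 tested miRNAs under 1 CPM with siCtrl, 23 rose and 0 fell (median log2 fold change 4.74); such a miRNA passes the filter on low counts only where another group is higher, so this count follows in part from the filter. From 1 to 10 CPM, 52 of 220 rose and 17 fell (median 0.46). From 10 to 100 CPM, 47 of 178 rose and 44 fell (median -0.02). From 100 to 1000 CPM, 18 of 120 rose and 31 fell (median -0.22). Of the 83 at 1000 CPM or more, 2 rose and 44 fell (median -0.49), and on library totals the median of these 83 was 0.03.

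**Figure D1:**
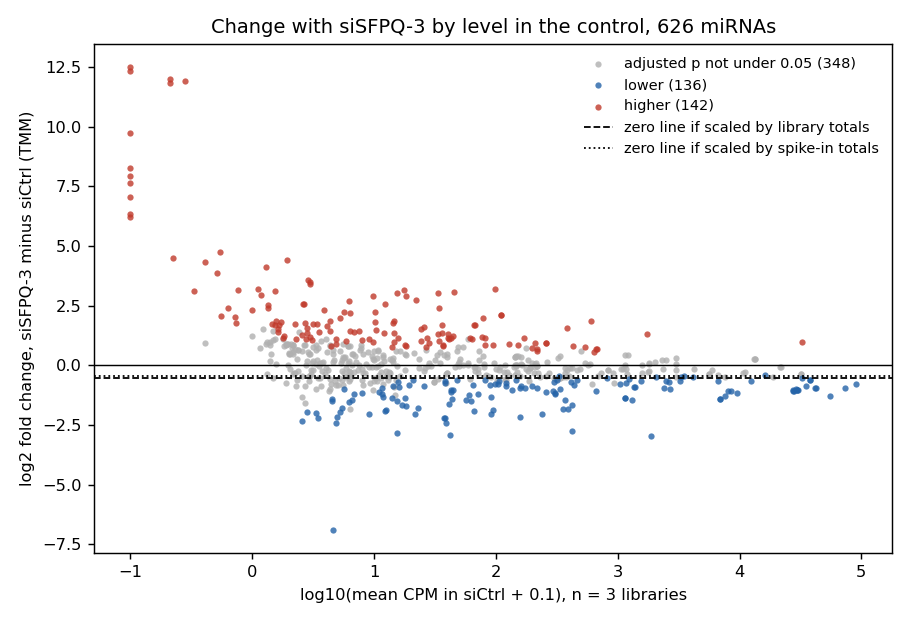
Log2 fold change of each of the 626 tested miRNAs (siSFPQ-3 minus siCtrl, TMM scale) against its mean level with siCtrl, as log10 of CPM plus 0.1; each point is 1 miRNA, red where higher (142), blue where lower (136) and grey where the adjusted p was not under 0.05 (348). The dashed and dotted lines mark where 0 would lie with library totals or spike-in totals, and the points fall from the scarce to the abundant miRNAs.

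The tested products of the miR-302/367 cluster, known from pluripotent stem cells, each went from at most 1 count over the 3 siCtrl libraries to a higher level, at most 1093 CPM. Of 12 miRNAs in the tables that carry the names miR-302 or miR-367, 9 passed the filter on low counts, 8 of them from the cluster and 1, miR-302e, from chromosome 11. With at most 1 count each in siCtrl they passed it only through groups where they were higher, so the finding that these 9 rose is a description and no count in support. The most abundant was miR-302c-3p, at 0, 0.332 and 0 CPM with siCtrl and 1093, 839 and 179.6 CPM with siSFPQ-3. In counts this was 1 over the siCtrl libraries and 9357 over the siSFPQ-3 libraries, a ratio of 5458 per CPM (exact 95% interval 979 to 215605, counting error only). Its sister products on the same transcript behaved alike. miR-302b-3p was at 0, 0.332 and 0 CPM with siCtrl and 985, 735 and 165 CPM with siSFPQ-3 (ratio 4872, 95% interval 874 to 192450). From the 5p arm, miR-302a-5p was at 0, 0 and 0.550 CPM with siCtrl and 891, 922 and 225 CPM with siSFPQ-3 (ratio 5261, 95% interval 944 to 207818). miR-302d-3p had 0 counts with siCtrl and was at 345, 283 and 45.5 CPM with siSFPQ-3, at least 582-fold higher when the control is set to a floor of 3 counts over the group. On the same floor miR-302a-3p, at 0 with siCtrl and 323, 237 and 39.5 CPM with siSFPQ-3, was at least 518-fold higher.

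In all 9, every siSFPQ-3 library was above every siCtrl library, as in 26.2% of all 626 tested miRNAs. With at most 1 count each in siCtrl, this nearly follows from the filter and is no added support. Replicate 3 was the lowest of the siSFPQ-3 libraries for the 3p products. miR-302e, a 17-base product that shares its first 14 bases with the 3p products of the cluster and differs from each at 1 base over its length, was at 50.9, 42.7 and 5.43 CPM with siSFPQ-3 and 0 with siCtrl (at least 85.7-fold). Reads of the cluster may have been counted for it, so its level is uncertain. The least abundant were miR-302c-5p at 20.8, 12.7 and 2.07 CPM, miR-367-3p at 14.5, 10.3 and 3.36 CPM and miR-302b-5p at 11.3, 9.86 and 2.07 CPM, all with 0 counts with siCtrl. Summed over the 5 miRNAs with the seed AAGUGCU, the level was 0, 0.664 and 0 CPM with siCtrl and 2797, 2137 and 435 CPM with siSFPQ-3. The other early embryonic cluster, miR-371 to miR-373, had 0 of 8 members with enough counts to test, and 7 of the 8 had no count in any of the 6 libraries.

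Epithelial miRNAs rose as well. In the miR-200 family, which holds cells in an epithelial state by repressing ZEB1 and ZEB2, 4 of 5 members rose and 0 fell. miR-141-3p was at 19.1, 38.2 and 42.4 CPM with siCtrl and 223, 306 and 284 CPM with siSFPQ-3 (log2 fold change 3.03 ± 0.27, adjusted p = 5.84e-09). miR-200a-3p, with the same seed, was at 13.5, 21.9 and 19.3 CPM with siCtrl and 115, 168 and 126 CPM with siSFPQ-3 (log2 fold change 2.90 ± 0.24, adjusted p = 3.80e-09). miR-200c-3p was at 33.3, 15.3 and 17.6 CPM with siCtrl and 171, 160.2 and 117 CPM with siSFPQ-3 (log2 fold change 2.75 ± 0.35, adjusted p = 1.11e-06). The siSFPQ-3 libraries of these 3 did not overlap with siCtrl. miR-200b-3p rose from 6.29 ± 2.02 to 29.2 ± 5.08 CPM (mean ± SD, n = 3; log2 fold change 2.20 ± 0.34, adjusted p = 1.96e-05), again without overlap. miR-429, the last member, was at 0.749, 4.65 and 4.40 CPM with siCtrl and 2.49, 1.75 and 0.517 CPM with siSFPQ-3 (log2 fold change -0.98 ± 0.69, adjusted p = 0.273). The summed level of the family was 75.3 to 88.6 CPM with siCtrl and 545 to 667 CPM with siSFPQ-3. miR-141-5p, the other arm of miR-141, had a larger log2 fold change still, from 1.87, 1.99 and 1.65 CPM to 45.2, 34.4 and 41.3 CPM (log2 fold change 4.41 ± 0.40, adjusted p = 9.98e-09).

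The 3 miRNAs of the miR-192/194/215 group, typical of gut, liver and kidney epithelium and partly induced by p53, all rose without overlap of the groups. miR-215-5p was at 968, 467 and 373 CPM with siCtrl and 2302, 2428 and 1835 CPM with siSFPQ-3 (log2 fold change 1.86 ± 0.29, adjusted p = 1.68e-05). miR-192-5p, which shares the seed of miR-215-5p, was at 2512, 1492 and 1208 CPM with siCtrl and 4393, 4894 and 3797 CPM with siSFPQ-3 (log2 fold change 1.33 ± 0.23, adjusted p = 6.40e-05). miR-194-5p was at 298, 460.5 and 387 CPM with siCtrl and 1024, 1442 and 895 CPM with siSFPQ-3 (log2 fold change 1.55 ± 0.33, adjusted p = 5.83e-04). Its hairpin lies beside that of miR-192 on chromosome 11. The scarce other arm, miR-215-3p, rose from 4, 3 and 2 counts with siCtrl to 97, 127 and 59 counts with siSFPQ-3 (log2 fold change 4.13 ± 0.50, adjusted p = 5.11e-07). The epithelial and sensory miR-183/96/182 cluster differed from these: 1 of its 6 products rose, miR-96-3p from 2.74 ± 0.531 to 7.90 ± 2.21 CPM (log2 fold change 1.55 ± 0.42, adjusted p = 0.00507), while its abundant member miR-182-5p was at 4002, 2625 and 2324 CPM with siCtrl and 3098, 3606 and 2567 CPM with siSFPQ-3 (log2 fold change 0.05 ± 0.20, adjusted p = 0.860).

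miR-181 products, known in lymphocyte and neuronal differentiation, rose from both arms. Of the 4 guide strands 3 rose, and the other, miR-181d-5p, had an adjusted p of 0.0553 at a log2 fold change of 1.09; all 4 were called on both other scales and without siCtrl replicate 1. miR-181a-5p was at 83.2, 26.9 and 17.6 CPM with siCtrl and 92.5, 125 and 68.5 CPM with siSFPQ-3 (log2 fold change 1.15 ± 0.41, adjusted p = 0.0254). Here siCtrl replicate 1 lay far above the other siCtrl libraries and overlapped with the siSFPQ-3 range. miR-181c-5p was at 3.00, 3.32 and 1.65 CPM with siCtrl and 6.33, 6.57 and 5.17 CPM with siSFPQ-3 (log2 fold change 1.12 ± 0.36, adjusted p = 0.0143), with no overlap. The 3p products moved further. miR-181a-3p was at 4.50, 1.66 and 2.20 CPM with siCtrl and 32.3, 38.8 and 30.7 CPM with siSFPQ-3 (log2 fold change 3.58 ± 0.39, adjusted p = 1.03e-07). miR-181c-3p had counts within 7.69% of those of miR-181a-3p in each of the 6 libraries (log2 fold change 3.49), so the reads of these near-identical products cannot be assigned to either.

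Single miRNAs from other loci rose as well. miR-2355-5p, from an intron of KLF7, was at 3.00, 2.32 and 3.30 CPM with siCtrl and 34.1, 29.6 and 27.1 CPM with siSFPQ-3 (log2 fold change 3.41 ± 0.30, adjusted p = 5.84e-09). miR-21-3p, the usually discarded arm of the oncogenic miR-21 within VMP1, was at 102, 115 and 80.3 CPM with siCtrl and 769, 930.2 and 1036 CPM with siSFPQ-3 (log2 fold change 3.20 ± 0.23, adjusted p = 9.37e-10). miR-629-5p, from an intron of TLE3, was at 62.2, 40.5 and 32.5 CPM with siCtrl and 385, 344 and 402 CPM with siSFPQ-3 (log2 fold change 3.06 ± 0.25, adjusted p = 3.80e-09). All 3 separated the groups completely. In the X-linked miR-424/503/450 cluster 5 of 10 products rose and 0 fell, and 8 rose on each of the other scales. miR-424-3p rose from 5.56 ± 2.77 to 27.3 ± 5.05 CPM (mean ± SD, n = 3; log2 fold change 2.23 ± 0.40, adjusted p = 9.27e-05) and miR-450b-5p from 170.0 ± 41.9 to 372 ± 89.1 CPM (log2 fold change 1.13 ± 0.30, adjusted p = 0.00374). miR-542-5p had a log2 fold change of 1.44 ± 0.31 (adjusted p = 6.94e-04) and miR-450a-5p of 1.79 ± 0.56 (adjusted p = 0.0119); the latter lost its call without siCtrl replicate 1 (adjusted p = 0.0590). miR-424-5p itself, the guide strand, was at 88.8, 259 and 179 CPM with siCtrl and 246, 376 and 239.8 CPM with siSFPQ-3 (log2 fold change 0.71 ± 0.47, adjusted p = 0.237).

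Of the 8 products of the miR-23/27/24 clusters tested, 3 rose and 0 fell. miR-23a-3p was at 709.9, 646 and 616 CPM with siCtrl and 1171, 1151 and 822 CPM with siSFPQ-3 (log2 fold change 0.67 ± 0.19, adjusted p = 0.00572), and its near-copy miR-23b-3p had a log2 fold change of 0.58 ± 0.19 (adjusted p = 0.0150). miR-27a-5p rose more, from 24.3, 9.96 and 8.80 CPM with siCtrl to 46.8, 48.0 and 64.3 CPM with siSFPQ-3 (log2 fold change 1.86 ± 0.46, adjusted p = 0.00250), while miR-27a-3p was at 0.09 (adjusted p = 0.748) and miR-24-3p at 0.07 (adjusted p = 0.796). On library totals 7 of the 8 rose and on spike-in totals 4. Among 6 inflammation-responsive miRNAs 3 rose and 0 fell, where 22.7% of all 626 rose. The 3 were miR-21-5p, miR-212-3p (log2 fold change 1.15 ± 0.42, adjusted p = 0.0302) and miR-147b-3p (log2 fold change 1.77 ± 0.65, adjusted p = 0.0311). The calls of miR-212-3p and miR-147b-3p ended without siCtrl replicate 1 (adjusted p = 0.0568 and 0.0979). miR-146a-5p (-0.11) and miR-146b-5p (-0.09), which share reads, and miR-132-3p (-0.00) did not pass the test.

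**Figure D2:**
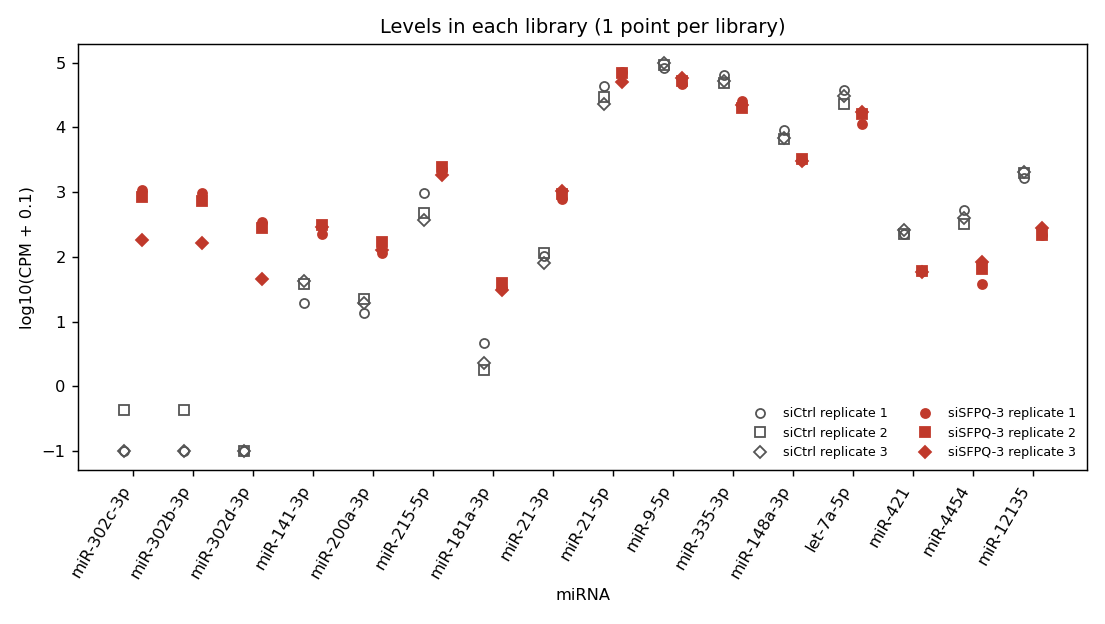
Level of 16 miRNAs in each library, as log10 of CPM plus 0.1; open grey symbols are the 3 siCtrl libraries and filled red symbols the 3 siSFPQ-3 libraries, with 1 symbol shape per replicate number. Points at -1 are libraries with 0 counts, and for the 3 miR-302 products on the left siSFPQ-3 replicate 3 is the lowest of the red symbols.

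The 12 largest decreases at a mean of at least 10 CPM kept their calls on library totals, on spike-in totals and without siCtrl replicate 1 (largest adjusted p 0.00260). In each, all 3 siSFPQ-3 libraries lay below all siCtrl libraries, as in 20.8% of all 626. The 12 were picked by the size of their change in these same libraries, so both statements follow in part from the choice and are no added support. miR-12135 was at 1662, 1970.1 and 2041 CPM with siCtrl and 218, 221 and 281 CPM with siSFPQ-3 (log2 fold change -2.98 ± 0.25, adjusted p = 3.80e-09). miR-4454 was at 526, 326 and 402 CPM with siCtrl and 37.3, 64.2 and 82.2 CPM with siSFPQ-3 (log2 fold change -2.77 ± 0.27, adjusted p = 1.87e-08). miR-6844, in an exon of TATDN1, was at 12.4, 60.8 and 53.9 CPM with siCtrl and 4.07, 6.79 and 5.94 CPM with siSFPQ-3 (log2 fold change -2.91 ± 0.41, adjusted p = 5.08e-06). Several of the 12 lie in introns of protein-coding genes. miR-944, inside TP63, was at 54.3, 28.6 and 34.1 CPM with siCtrl and 6.33, 8.98 and 6.20 CPM with siSFPQ-3 (log2 fold change -2.43 ± 0.37, adjusted p = 1.55e-05). Both arms of miR-653, inside CALCR, fell, with log2 fold changes of -2.03 ± 0.35 (adjusted p = 6.92e-05) for the 3p and -1.87 ± 0.24 (adjusted p = 1.35e-06) for the 5p product. miR-421, from FTX, was at 229, 227 and 263 CPM with siCtrl and 59.3, 59.8 and 57.9 CPM with siSFPQ-3 (log2 fold change -2.02 ± 0.19, adjusted p = 1.85e-08). miR-1269a and miR-1269b, which differ by little in sequence, had counts within 7.41% of each other and log2 fold changes of -2.20 and -2.20. Others of the 12 were miR-301a-5p at -2.17 ± 0.27 (adjusted p = 7.19e-07) and miR-651-5p at -1.91 ± 0.21 (adjusted p = 9.52e-08).

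Of the 8 most abundant miRNAs with siCtrl, counting miRNAs that share reads once, 7 fell and 1 rose. The most abundant, miR-9-5p, a miRNA of neural cells, was at 82511, 91711 and 97511 CPM with siCtrl and 46751, 52628 and 57800.4 CPM with siSFPQ-3 (log2 fold change -0.79 ± 0.15, adjusted p = 1.35e-04). miR-335-3p, from an intron of the imprinted gene MEST, was at 65547, 48452 and 51393 CPM with siCtrl and 25849.5, 20107 and 21816 CPM with siSFPQ-3 (log2 fold change -1.29 ± 0.17, adjusted p = 1.41e-06), and its 5p partner miR-335-5p was at 55447, 75401 and 89113 CPM with siCtrl and 34829, 37051 and 41659 CPM with siSFPQ-3 (log2 fold change -0.95 ± 0.23, adjusted p = 0.00169). miR-21-5p went the other way, at 43791, 29779 and 23307 CPM with siCtrl and 72079, 69139.9 and 50459.5 CPM with siSFPQ-3 (log2 fold change 0.98 ± 0.28, adjusted p = 0.00656), with no overlap. Of the 7 decreases, that of miR-335-3p also passed on library totals and spike-in totals, and the other 6 did not (adjusted p 0.0804 to 0.976 and 0.144 to 0.901). Without siCtrl replicate 1, miR-16-5p (adjusted p = 0.297) and miR-199a-3p (adjusted p = 0.0729) lost their calls.

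All 9 let-7 guide strands, a family known for repressing growth genes such as HMGA2 and LIN28, were called lower, with log2 fold changes from -1.07 to -0.70, and 7 of the 9 share reads, so the 9 come to 3 separable levels. The read-sharing let-7a-5p was at 37321, 23059 and 30215 CPM with siCtrl and 11176, 16345 and 17384 CPM with siSFPQ-3 (log2 fold change -1.01 ± 0.25, adjusted p = 0.00235). let-7d-5p, which is counted apart, was at 171, 109 and 125 CPM with siCtrl and 40.7, 71.9 and 86.0 CPM with siSFPQ-3 (log2 fold change -1.03 ± 0.27, adjusted p = 0.00368). let-7i-5p was at 373, 263 and 259 CPM with siCtrl and 184, 190.4 and 175 CPM with siSFPQ-3 (log2 fold change -0.70 ± 0.22, adjusted p = 0.0110). None of the siSFPQ-3 libraries overlapped with siCtrl for these 3. On library totals 3 of the 9 were called and on spike-in totals 0; without siCtrl replicate 1, 8 were. The 3p products let-7a-3p, let-7b-3p and let-7f-1-3p, whose seed is UAUACAA, summed to 229, 427 and 539 CPM with siCtrl and 144, 146 and 141 CPM with siSFPQ-3, and all 3 fell, on the other scales too.

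The miR-148/152 family, which targets DNMT1, had 3 of 3 members lower, with 3 on library totals, 2 on spike-in totals and 3 without siCtrl replicate 1. miR-148a-3p was at 9204, 6593 and 6799 CPM with siCtrl and 3110.2, 3271 and 2994 CPM with siSFPQ-3 (log2 fold change -1.27 ± 0.15, adjusted p = 4.40e-07). miR-148b-3p was at 11256, 8484 and 8761 CPM with siCtrl and 4184, 4527 and 4109 CPM with siSFPQ-3 (log2 fold change -1.15 ± 0.14, adjusted p = 6.84e-07). miR-152-3p fell from 2417 ± 194 to 1266 ± 86.6 CPM (log2 fold change -0.93 ± 0.14, adjusted p = 8.95e-06). The summed level of this seed, CAGUGCA, was 23088, 17323 and 17939 CPM with siCtrl and 8492, 9162 and 8339 CPM with siSFPQ-3.

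In the proliferative miR-17/92 cluster 8 of 12 products fell and 0 rose, and 9 fell without siCtrl replicate 1. That library lay below the other siCtrl libraries for the 8 that fell, and above them for miR-92a-3p and miR-18a-3p. miR-18a-5p was at 3908, 8379 and 8315 CPM with siCtrl and 2925, 2498 and 2257 CPM with siSFPQ-3 (log2 fold change -1.42 ± 0.24, adjusted p = 4.23e-05), and was the 1 of the 8 also called on library totals and spike-in totals. miR-17-5p was at 6374, 10184 and 9109 CPM with siCtrl and 4305, 4831 and 3167 CPM with siSFPQ-3 (log2 fold change -1.06 ± 0.28, adjusted p = 0.00363). miR-20a-5p was at 22110.5, 39001 and 43369 CPM with siCtrl and 19708, 18325 and 20110.4 CPM with siSFPQ-3 (log2 fold change -0.85 ± 0.18, adjusted p = 8.01e-04). The groups did not overlap for these 3, whereas they did for miR-19a-3p, at 15533, 52132 and 60536 CPM with siCtrl and 19704, 21826 and 25845 CPM with siSFPQ-3 (log2 fold change -0.93 ± 0.30, adjusted p = 0.0167). miR-92a-3p, from the same transcript, was at 32578, 12063 and 12087 CPM with siCtrl and a mean of 13631 CPM with siSFPQ-3. Its log2 fold change was -0.47 (adjusted p = 0.297), and 0.23 without siCtrl replicate 1 (adjusted p = 0.571). Of the paralogous X-linked miR-106a/363 cluster 3 of 5 fell, miR-18b-5p and miR-20b-5p with reads shared with miR-18a-5p and miR-17-5p, and miR-106a-5p with log2 fold change -0.95 ± 0.25, adjusted p = 0.00358; of the 3, miR-18b-5p was called on the other scales. In the miR-106b/25 cluster of MCM7, miR-106b-5p fell (log2 fold change -0.66 ± 0.23, adjusted p = 0.0228), miR-25-5p rose (log2 fold change 1.13 ± 0.36, adjusted p = 0.0132) and the other 4 of 6 did not pass; the call of miR-106b-5p ended on both other scales. Summed over the seed AAAGUGC, which these clusters share, the level was 36576, 58176 and 61137 CPM with siCtrl and 29672, 30281 and 30986 CPM with siSFPQ-3.

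Of 6 miR-15/16 family members, which act on cell-cycle genes, 4 fell. miR-497-5p was at 803, 1572 and 1590.3 CPM with siCtrl and 370.0, 532 and 528 CPM with siSFPQ-3 (log2 fold change -1.47 ± 0.22, adjusted p = 1.17e-05) and was the 1 called on both other scales. miR-16-5p was at 44213, 26424 and 26812 CPM with siCtrl and 20135, 24176 and 23250.1 CPM with siSFPQ-3 (log2 fold change -0.53 ± 0.17, adjusted p = 0.0166). miR-195-5p had a log2 fold change of -0.51 ± 0.18 (adjusted p = 0.0272) and miR-15b-5p of -0.57 ± 0.21 (adjusted p = 0.0311); without siCtrl replicate 1 only miR-497-5p and miR-15b-5p were called. Among the miRNAs in the intron of CLCN5 on the X chromosome 5 of 13 fell and 0 rose. miR-660-5p fell from 307 ± 23.0 to 139 ± 31.3 CPM (log2 fold change -1.14 ± 0.20, adjusted p = 7.08e-05), miR-188-5p from 17.8 ± 3.15 to 6.75 ± 1.85 CPM (log2 fold change -1.38 ± 0.35, adjusted p = 0.00281) and miR-532-5p from 199.8 ± 73.8 to 111 ± 26.2 CPM (log2 fold change -0.85 ± 0.25, adjusted p = 0.00842). Without siCtrl replicate 1 this count was 2, and on each other scale it was 1. Of 5 FTX products 3 fell, miR-421, miR-545-5p (log2 fold change -1.78 ± 0.55, adjusted p = 0.0121) and miR-374a-5p (log2 fold change -0.70 ± 0.22, adjusted p = 0.0113), and 5 fell without siCtrl replicate 1. Only miR-421 of the 5 was called on the other scales.

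In the miR-130/301/454 family 3 of 5 fell, miR-454-3p with log2 fold change -0.98 ± 0.19, adjusted p = 1.98e-04 and miR-301a-3p and miR-301b-3p, which share reads, with -0.89 and -0.89. On library totals miR-454-3p alone stayed lower and miR-130a-3p was called higher, and on spike-in totals 0 of the 5 were called. In the miR-34 family, which p53 induces, 1 of 4 tested members fell: miR-34a-5p from 3242 ± 537 to 2044 ± 399 CPM (log2 fold change -0.67 ± 0.16, adjusted p = 0.00241), a call lost on both other scales. The 2 of 3 called members of the miR-99/100 family, miR-100-5p and miR-99a-5p, have nearly the same reads, at 2311, 546 and 586 CPM with siCtrl and 416, 478 and 449.6 CPM with siSFPQ-3 for miR-100-5p (log2 fold change -1.36 ± 0.36, adjusted p = 0.00471). That call rested on siCtrl replicate 1, which was the highest library, and without it the adjusted p was 0.284. Neither member was called on the other scales. In the miR-29 family 1 of 3 fell, miR-29b-3p (log2 fold change -0.64 ± 0.20, adjusted p = 0.0119). That call ended on both other scales, and on library totals 2 others of the family rose. Among the mirtrons and capped precursors, which do not need Drosha, 2 of 4 fell, miR-877-5p (log2 fold change -1.03 ± 0.27, adjusted p = 0.00443) and miR-1226-3p (log2 fold change -0.80 ± 0.26, adjusted p = 0.0156), and 0 on the other scales; without siCtrl replicate 1 only miR-877-5p was called. No member passed in the miR-30 family (0 of 5, log2 fold change 0.10 to 0.28, 3 higher on each other scale), the miR-125 family (0 of 2), the miR-221/222 cluster (0 of 4) or the imprinted 14q32 cluster (0 of 7 tested of 67).

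**Figure D3:**
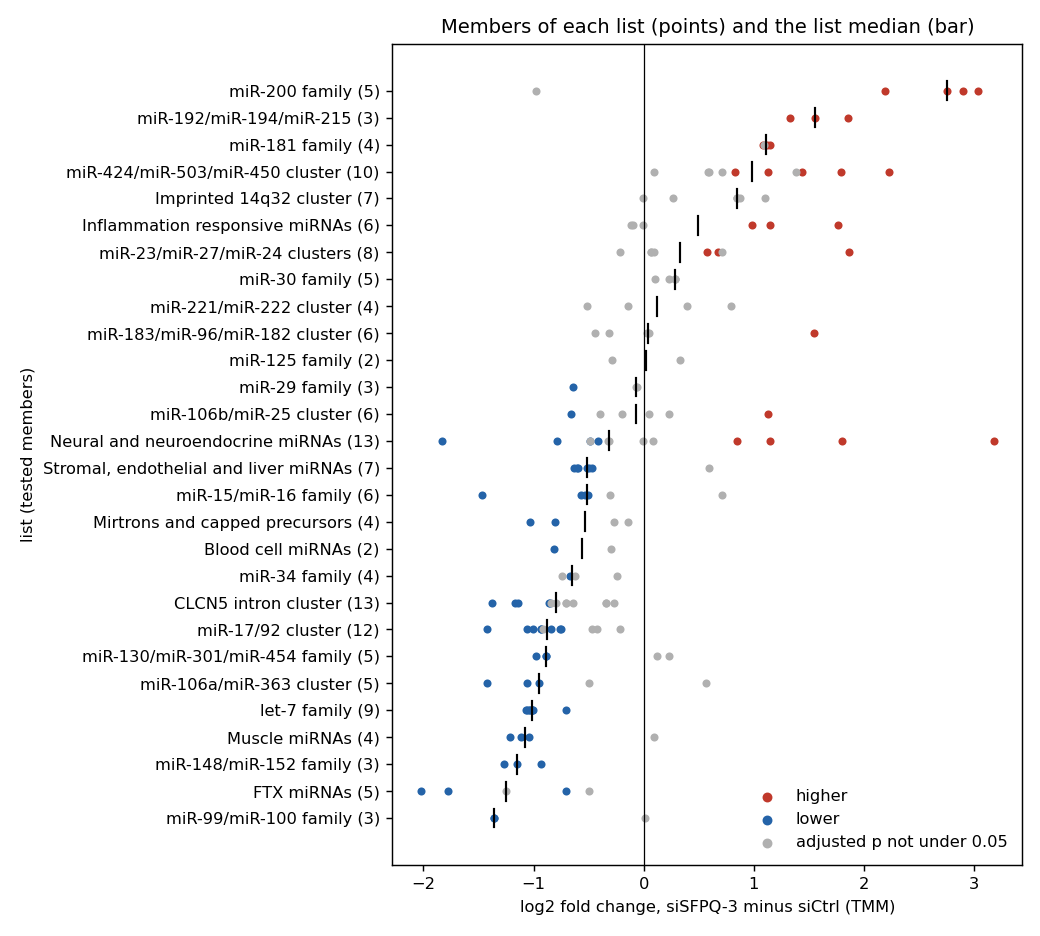
Log2 fold change (siSFPQ-3 minus siCtrl, TMM scale) of each tested member of 28 lists; each point is 1 miRNA, red where higher, blue where lower and grey where the adjusted p was not under 0.05, and the bar is the list's median. The miR-302/367 list, at 7.67 to 12.50, and the miR-371/373 list, with 0 tested, are not drawn; members that share reads are drawn as separate points.

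The neural and neuroendocrine markers were mixed. Of 13 tested, 4 rose and 4 fell. miR-124-3p, also in the list, had 1 count over the siCtrl and 1 over the siSFPQ-3 libraries and was not tested. miR-9-5p and miR-7-5p were abundant with siCtrl and fell (-0.79 and -0.41). The levels of miR-7-5p were 16259, 16668 and 15236 CPM with siCtrl and 11435, 11281 and 13487 CPM with siSFPQ-3, and its call ended on both other scales and without siCtrl replicate 1. miR-218-5p, a miRNA of motor neurons, fell from 433, 375 and 376 CPM to 102, 124 and 106 CPM (log2 fold change -1.84 ± 0.21, adjusted p = 2.85e-07), the 1 decrease of the 4 also called on both other scales. The last of the 4 was miR-128-3p, at -0.49 ± 0.14 (adjusted p = 0.00700). By contrast miR-375-3p, a defining miRNA of neuroendocrine cells, was near 0 with siCtrl, at 1.12, 0.332 and 0.550 CPM, and rose to 6.56, 8.55 and 3.88 CPM (log2 fold change 3.18 ± 0.66, adjusted p = 5.23e-04). miR-138-5p rose from 1.62 ± 0.274 to 5.65 ± 1.93 CPM (log2 fold change 1.80 ± 0.39, adjusted p = 7.21e-04), and miR-212-3p and miR-219a-5p (log2 fold change 0.85 ± 0.32, adjusted p = 0.0328) also rose. The summed level of the list was 108093 to 123848 CPM with siCtrl and 65535 to 78263 CPM with siSFPQ-3, most of it miR-9-5p, followed by miR-7-5p and miR-9-3p. miR-9-3p had a mean of 7530 CPM with siCtrl and 5370 CPM with siSFPQ-3 and did not pass (log2 fold change -0.49 ± 0.21, adjusted p = 0.0627).

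Among the markers of other cell types 0 rose on the TMM scale. Of 6 blood-cell miRNAs 2 could be tested, and the defining miR-223-3p and miR-451a had 0 and 1 count over the siCtrl and 1 and 2 over the siSFPQ-3 libraries. Of the tested pair miR-142-3p fell (log2 fold change -0.82 ± 0.29, adjusted p = 0.0250), a call lost on both other scales, and the list summed to 50.1 to 105 CPM with siCtrl and 28.4 to 59.5 CPM with siSFPQ-3. The liver miRNA miR-122-5p had 0 counts in all 6 libraries. Of 4 tested muscle miRNAs 3 fell: miR-1-3p from 306 ± 22.6 to 132 ± 22.4 CPM (log2 fold change -1.21 ± 0.28, adjusted p = 0.00152), miR-133b and miR-133a-3p. Of these miR-1-3p was called on library totals, and 0 were on spike-in totals. miR-133b and miR-133a-3p had similar counts, 312 and 326 over the siCtrl and 252 and 277 over the siSFPQ-3 libraries. Sharing of part of their reads was not tested, so the 3 decreases may not be separate. In the stromal, endothelial and liver list 6 of 7 fell, with log2 fold changes of -0.63 to -0.47, led by miR-199a-3p at 49194, 32518 and 32130.1 CPM with siCtrl and 25464, 26033 and 23322 CPM with siSFPQ-3 (log2 fold change -0.61 ± 0.16, adjusted p = 0.00479), and 0 of these 6 calls held on library totals or spike-in totals. miR-199a-3p shares its reads with miR-199b-3p. Summed over the list the level was 41448 to 55608 CPM with siCtrl and 29048 to 31859.7 CPM with siSFPQ-3. The part of other cells in any result was not tested.

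The balance between the arms of a hairpin does not depend on library scaling, since both arms are counted in the same library. It was tested for 199 hairpins with both products above the filter, and changed in 25 (12.6%; 54 at an unadjusted p under 0.05), 19 toward the 3p and 6 toward the 5p product; in a fit of only the compared groups 11 changed. In 58 of the 199 (29.1%) the siSFPQ-3 libraries lay wholly outside the siCtrl range. With the scarcer arm taken from the 15 libraries of the NONO and antisense oligonucleotide groups, 21 of the 25 gained their scarcer arm, as did 126 of all 199 with any sign of change (median log2 change toward the scarcer arm 0.18). Where both arms were called in the level test, they moved in the same direction in all 61 hairpins, 34 up and 27 down.

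The clearest case was MIR21, the hairpin of miR-21. The 3p share of its counts was 0.232, 0.384 and 0.344% with siCtrl and 1.06, 1.33 and 2.01% with siSFPQ-3 (log2 change of 3p over 5p 2.19 ± 0.27, adjusted p = 1.09e-05), so that both arms rose and miR-21-3p rose more. For MIR215 the 3p share was 0.154, 0.213 and 0.295% with siCtrl and 0.944, 1.13 and 0.824% with siSFPQ-3 (2.26 ± 0.44, adjusted p = 0.00187), again with both arms higher. MIR25 moved toward its scarce 5p product, the 3p share being 99.4, 99.7 and 99.7% with siCtrl and 98.8, 99.0 and 98.7% with siSFPQ-3 (-1.58 ± 0.25, adjusted p = 2.12e-04). In MIR424 the 3p share was 5.95, 3.11 and 1.52% with siCtrl and 10.7, 7.54 and 8.21% with siSFPQ-3 (1.48 ± 0.36, adjusted p = 0.00686), and in MIR96 it was 0.314, 0.196 and 0.236% with siCtrl and 0.567, 0.775 and 0.651% with siSFPQ-3 (1.46 ± 0.35, adjusted p = 0.00686). In these 5 the groups did not overlap, and no product was flagged for counts nearly equal to those of another tested miRNA. Sharing of only part of the reads was not tested. MIR181A1 had a 3p share of 5.13, 5.81 and 11.1% with siCtrl and 25.9, 23.7 and 31.0% with siSFPQ-3 (2.46 ± 0.39, adjusted p = 2.12e-04), but its 5p product is also made from another hairpin and its 3p reads match those of MIR181C (2.40 ± 0.49, adjusted p = 0.00187).

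MIR301A and MIR301B, in contrast to the 21, gained their usual 3p product; their 5p product fell further. The 3p share of MIR301A was 84.0, 91.7 and 89.5% with siCtrl and 94.8, 95.4 and 96.2% with siSFPQ-3 (1.42 ± 0.23, adjusted p = 2.55e-04), and MIR301B changed by 2.05 ± 0.41, adjusted p = 0.00187. Their 3p reads are shared, and the siCtrl replicates differed among themselves in MIR301A. Hairpins of the primate-specific miR-548 family made up 7 of the 25 and 19 of the 199 tested, among them MIR548J (2.20 ± 0.51, adjusted p = 0.00512), MIR548G (1.98 ± 0.41, adjusted p = 0.00187) and MIR548AV (-2.06 ± 0.25, adjusted p = 1.09e-05). The arms of miR-548 hairpins are near-complementary and their many copies are near-identical, so their reads cannot be placed with certainty. How far reads can be shared even between arms is shown by MIR625, whose near-complementary products had counts within 0.325% of each other in all 6 libraries. Of the 25 hairpins, 13 carried no flag for shared reads or for several loci. The flag for shared reads marks only near-equal counts in every library. The 13 include MIR181C and miR-548 hairpins such as MIR548AV and MIR548J, whose reads cannot be placed with certainty.

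**Figure D4:**
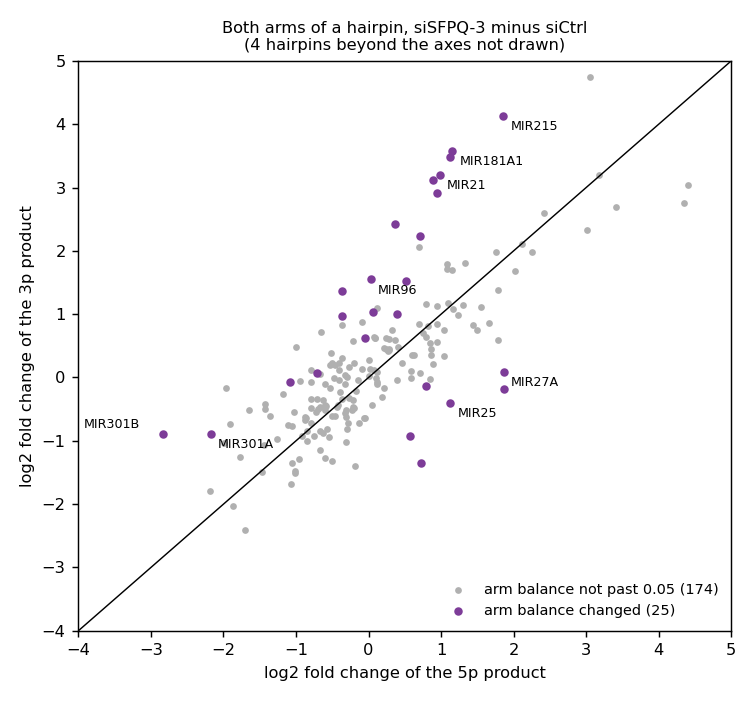
Log2 fold change (siSFPQ-3 minus siCtrl) of the 3p product against that of the 5p product for hairpins with both arms tested; each point is 1 hairpin, purple where the arm balance changed (25 of 199), and the line marks equal change. MIR21, MIR215 and MIR181A1 lie above the line with both arms higher, MIR25 and MIR27A below it, and 4 hairpins beyond the axes are not drawn.

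Called products of hairpins within 10 kb on the same strand, which often share a primary transcript, mostly moved in the same direction. Of 39 such clusters 29 had a called product and 23 had at least 2. Of these 23, 9 held increases alone, 12 decreases alone, and 2 both, miR-106b/93/25 and let-7e/miR-99b/miR-125a. Both arms of the same hairpin count here, as in the miR-181c/181d cluster, where the called products are the arms of miR-181c. Let-7 products that share reads count in several clusters. The clusters are thus not independent observations of neighbouring hairpins. The miR-653/489 cluster in CALCR had 3 of 3 products lower and the miR-195/497 cluster 4 of 4. The miR-141/200c cluster had 4 of 4 higher. By host, the 198 hairpins in introns of protein-coding genes had 25.8% higher and 21.2% lower, the 83 in noncoding host genes 21.7% and 33.7%, the 26 in exons of protein-coding genes 23.1% and 34.6%, and the 91 between genes 24.2% and 15.4%, against 24.4% and 23.4% of all 398. On the X chromosome 6 of 32 hairpins rose and 12 fell. Ranked by the length of the host gene, 7 of the shortest 66 rose and 15 fell, 24 and 6 of the middle 66, and 20 and 21 of the longest 66. In that order their median siCtrl levels were 38.8, 14.4 and 20.1 CPM, so these groups differ in level as well as in length. Their median log2 fold changes were -0.24, 0.25 and 0.02, and 0.29, 0.75 and 0.56 on library totals. The cluster, host and X chromosome counts are on the TMM scale. Spearman's rho between the log2 fold change and host length over the 198 was 0.07, and that with the siCtrl level over all 398 hairpins was -0.39. Both are descriptions across hairpins that share libraries, clusters and the siCtrl values.

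Set directly against the other SFPQ siRNA, siSFPQ-2, siSFPQ-3 differed in 4 of 626 miRNAs (0.639%), all lower with siSFPQ-3, and 40 had an unadjusted p under 0.05. The count was 0 in a fit of only the compared groups and 0 to 6 with 1 replicate left out. The 4 were miR-548b-3p, miR-22-3p, miR-22-5p and miR-1322. miR-22-3p, a broadly expressed miRNA, was at 346 ± 31.0 CPM with siSFPQ-3 and 603 ± 40.9 CPM with siSFPQ-2 (mean ± SD, n = 3 each; log2 difference -0.80 ± 0.16, adjusted p = 0.0112), and its other arm miR-22-5p was at 37.5 ± 7.85 CPM with siSFPQ-3 and 77.0 ± 5.29 CPM with siSFPQ-2 (log2 difference -1.04 ± 0.23, adjusted p = 0.0263). Against siCtrl, miR-22-3p was at -0.11 ± 0.16 (adjusted p = 0.617) with siSFPQ-3 and did not pass. miR-548b-3p was at 4.10 ± 1.25 CPM with siSFPQ-3 and 11.7 ± 1.70 CPM with siSFPQ-2 (log2 difference -1.52 ± 0.28, adjusted p = 0.00917). miR-1322, in an intron of PINX1, had 0 counts in all 3 siSFPQ-3 libraries, against 0.983 ± 0.101 CPM with siSFPQ-2 and 5.24, 3.98 and 4.40 CPM with siCtrl (adjusted p = 0.0153 and 4.77e-08). For miR-302c-3p the difference between the siRNAs was 1.31 ± 0.56 (adjusted p = 0.660), and for miR-21-3p -0.09 ± 0.21 (adjusted p = 0.983). A p that misses the threshold does not show that the reagents act alike.

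Against the mean of the NONO siRNAs, which reduce SFPQ's partner, siSFPQ-3 was higher in 167 miRNAs (26.7%) and lower in 153 (24.4%). This comparison uses the same siSFPQ-3 libraries as that with siCtrl, so its values are not independent of those above. miR-21-3p was among the firmest differences (912 ± 134 CPM against 100.0 ± 27.1 CPM, log2 difference 3.20 ± 0.18, adjusted p = 4.14e-12), with miR-629-5p (377 ± 29.7 CPM against 46.5 ± 10.4 CPM, log2 difference 3.02 ± 0.20, adjusted p = 2.26e-11) and miR-2355-5p (30.3 ± 3.56 CPM against 3.12 ± 0.995 CPM, log2 difference 3.33 ± 0.23, adjusted p = 5.11e-11). miR-302a-5p was at 0.328 ± 0.258 CPM with the NONO siRNAs (mean ± SD, n = 6). Among the decreases, miR-12135 was lower with siSFPQ-3 (239.9 ± 35.3 CPM against 1894 ± 546 CPM, log2 difference -2.94 ± 0.23, adjusted p = 4.45e-10). The miR-34 family differed here as well. miR-34a-5p was lower with siSFPQ-3 than with the NONO siRNAs (2044 ± 399 CPM against 7439 ± 1902 CPM, log2 difference -1.83 ± 0.16, adjusted p = 1.13e-09). Its mean with siCtrl was 3242 CPM, so the NONO libraries lay above siCtrl on average. miR-34b-5p (log2 difference -3.59, adjusted p = 5.62e-10) and miR-34c-5p (log2 difference -3.35, adjusted p = 1.09e-09) were also lower with siSFPQ-3 than with the NONO siRNAs. Against siCtrl the log2 fold changes of miR-34b-5p and miR-34c-5p were -0.63 and -0.24 and did not pass.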

How the data were processed

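Per the file headers, the deposited values are read counts for each mature miRNA locus and each spike-in, which the authors made with featureCounts 2.0.3; per the submitters' processing notes the reads passed through Trimmomatic 0.39, Bowtie 1.3.0 and UMI-tools 1.1.1 on hg38. No source used here says whether reads were collapsed by molecular identifier, so intervals cover counting error only. Of 2883 loci, the one with the largest total was kept for each of 2652 miRNAs. Names came from RefSeq GRCh38.p14 by position (2364 miRNAs), or else from the hairpin in GENCODE v29 (279); 9 had none. In 32 sets, holding 80 miRNAs, counts lay within 10% of each other in every library, and such members cannot be separated.

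Tests used edgeR 4.0.16 in R 4.3.3 on all 24 libraries with a term per group (TMM factors, a minimum count of 10 in filterByExpr, 16 residual degrees of freedom, threshold 0.05). Arm balance was fitted with a coefficient per library and an arm term per group. Alternatives used other scalings and filters, a replicate block, only the compared groups, DESeq2 1.42.0, limma 3.58.1 and each replicate left out. On data simulated for siSFPQ-3 against siCtrl (615 miRNAs tested), the level test called 63.3% of 2-fold changes, 93.8% of 4-fold changes and 0.477% of unchanged miRNAs. The simulation gave every miRNA the same spread and as many increases as decreases. It held no outlying library and no shift between scales, so these shares need not hold for the real libraries.

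Named were the 12 largest increases and decreases past the threshold at 10 CPM or more, the 8 most abundant miRNAs, up to 4 called members of each of 30 lists, up to 4 per direction in each direct comparison, the 8 largest changes of arm balance, and up to 6 miRNAs nearly absent with siCtrl. miR-141-5p, miR-629-5p and hairpins such as MIR25, MIR424, MIR96 and MIR625 were also described, the last 4 chosen after their values were seen. 1 of the 12 decreases is not reported here. The members and lists were chosen with earlier results of these data known.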

Additional observations from a re-analysis of the deposited data

Results flagged for a closer look

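A direct test between the SFPQ siRNAs separated 4 miRNAs, all lower with siSFPQ-3 than with siSFPQ-2. The log2 differences were -0.80 for miR-22-3p (adjusted p = 0.0112), -1.04 for miR-22-5p (adjusted p = 0.0263), -1.52 for miR-548b-3p (adjusted p = 0.00917) and -4.72 for miR-1322 (adjusted p = 0.0153, with 0 counts in all 3 siSFPQ-3 libraries, so that the fitted value depends on the prior count). Both arms of the MIR22 hairpin are among them.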

How the results depend on the processing

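Against siCtrl, the 142 increases and 136 decreases became 234 and 51 with library totals, 205 and 45 with spike-in totals, 92 and 114 at a mean of at least 10 CPM, and 106 and 74 with only the compared groups. With RLE factors they were 144 and 127, with no filter 137 and 111, and with DESeq2 134 and 130. With a replicate out they ranged from 116 to 144 and from 101 to 114. Replicate numbers were not taken to pair the libraries (correlations of deviations 0.0066, 0.025 and 0.11 for siSFPQ-3 and siCtrl, and 0.22, 0.044 and 0.53 for siSFPQ-3 and siSFPQ-2), and with the replicate number as a block the counts were 150 and 145. No called miRNA was called in the other direction under these settings.

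The 4 differences from siSFPQ-2 became 1 on spike-in totals, 1 at a mean of at least 10 CPM, 0 with only the compared groups and 0 to 6 with a replicate out; as a block the replicate number gave 12. Lower calls against the NONO siRNAs went from 153 to 81 with library totals and 54 with spike-in totals, where higher calls went from 167 to 260. Hairpins with a changed arm balance went from 25 to 11 with only the compared groups and to 42 with limma and the replicate block.

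On library totals the log2 fold change turned to 0.0058 for miR-16-5p, 0.026 for miR-195-5p, 0.016 for miR-126-3p, 0.014 for miR-199b-5p, 0.046 for miR-199a-5p, 0.038 for miR-128-3p, 0.11 for miR-7-5p, 0.46 for miR-29a-3p and 0.45 for miR-29c-3p, and on spike-in totals to 0.032 for miR-7-5p. For miR-132-3p it ranged from -0.27 to 0.75 with a replicate out, the highest without siCtrl replicate 1. The scalings differ by a constant per library. The cause of the other changes was not tested. Among values for single miRNAs under an alternative, 142 of 2776 changed sign, 11 of them with a call in at least 1 of the settings compared; 268 others lost and 70 gained a call. Levels near 1 CPM rest on a few counts per library.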
